A study of Mus musculus with 6 samples.

Results

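The genes described here encode the Rab, Arf and Arl GTPases, small proteins that direct membrane traffic inside cells, together with genes named after them. They were taken as every measured gene whose symbol starts with Rab, Arf or Arl followed by a digit, which gave 80 of the 16464 genes with a symbol. Of these, 55 were Rab GTPases, 6 Arf GTPases and 5 Arl GTPases. The other 14 carry such a symbol without being one of these GTPases and are called partner genes below: binding proteins and regulators such as the Rab11fip genes, and 2 non-coding RNAs.

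RNA came from the dissected habenula of adult mice of the Chat DW167 line, aged 6 to 12 weeks. These mice carry a bacterial artificial chromosome transgene, named after the cholinergic gene Chat, that lets ribosomes be pulled out of the cells using it, a method called TRAP (translating ribosome affinity purification). The 3 IP arrays hold the ribosome-bound RNA that was pulled down, labelled as that of cholinergic neurons of the medial habenula. The 3 UB arrays hold what stayed unbound in the same preparations, labelled as that of the whole tissue, and preparation 1 means IP replicate 1 with UB replicate 1. All 6 arrays come from this transgenic line, so IP and UB differ in the pull-down and not in genotype, and the comparison covers 1 transgenic line.

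A Rab GTPase works as a switch. An exchange factor loads it with GTP, the loaded form binds effectors such as tethers and motors on its own membrane, and a GTPase-activating protein (GAP) turns it off. Each Rab has its own compartments, from the endoplasmic reticulum and Golgi to endosomes, lysosomes and secretory vesicles, and a lipid tail that other proteins attach and shield. Arf GTPases recruit vesicle coats and lipid-modifying enzymes at the Golgi and plasma membrane, and the Arf-like Arl GTPases serve varied tasks that include tubulin folding and loading of lipid-tailed proteins into cilia. In neurons Rab3 and Rab27 sit on vesicles that release transmitter or peptide.

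Levels are log2 values as deposited, less the mean offset of 0.016 of the biotinylated controls on the IP arrays. Signal means a linear level of at least 50 (log2 5.64), and testing required it on 3 or more of the 6 arrays. Each array had signal for 7533 to 7579 probe sets in IP and for 8618 to 8659 in UB, and the 6 arrays limit the precision of every value. A gene was called where limma gave an adjusted p under 0.05 over all 8960 tested probe sets. Arrays had been normalized within each fraction, so the spread between replicates can be understated and adjusted p too small. All 7 measured markers of cholinergic neurons of the medial habenula were called higher in IP. Markers of other cells were lower: all 7 tested for oligodendrocytes (summed linear level 258 to 324 in IP, against 17869 to 20622 in UB), all 8 for astrocytes (1026 to 1372, against 22600 to 27531) and 3 of 4 for microglia (224 to 270, against 690 to 928). General neuronal markers went both ways, with 2 of 10 called higher and 6 called lower. All 3 markers of GABAergic neurons were called lower (34 in IP, against 1843 to 2307 in UB). So were all 3 tested for ependyma and choroid plexus (829 to 2685, against 14373 to 35801). Under the signal level on all IP arrays were 5 oligodendrocyte, 6 astrocyte, 3 microglia, 3 GABAergic, 2 ependyma and 1 general neuronal markers. Such genes could pass the filter only by being lower in IP. In UB 2 cholinergic markers were so placed and could pass only by being higher in IP. The cell type markers move with every difference below, and their part in it was not tested. A lower level in IP can stand for fewer cells of a type carrying a transcript, for less RNA per cell or for less of it bound to ribosomes. These cannot be told apart here.

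Of the 80 genes, 65 were tested. Among 43 tested Rab GTPases, 15 were called higher in IP and 14 lower, or 34.9% and 32.6%, against 30.9% and 43.5% of all tested probe sets. The calls of at least 2-fold came to 9 higher and 8 lower of the 43 Rab GTPases by the fitted change (Rab23 among them, whose bound is under 2-fold), against 14.3% and 28.0% of all probe sets. Their median log2 fold change of IP over UB was -0.01, beside -0.17 for all tested probe sets, so the median Rab GTPase was close to level. Single members moved in both directions, as did the tested probe sets at large. For 32 of the 43 the IP and UB values did not overlap, against 80.0% of all tested probe sets. Of 6 Arf GTPases 3 were called higher and 1 lower, and of 4 tested Arl GTPases 2 were called higher and 1 lower. Of 12 tested partner genes 5 were called higher and 5 lower. The split rests on the scaling between fractions. Setting all arrays to one median over every probe set, called median scaling below, raised the changes by 1.56, and 36 Rab GTPases were then higher and 5 lower. With signal for 7533 to 7579 of 17306 probe sets on an IP array, that median lay under the signal level in IP. Median scaling therefore sets the IP arrays by a background value. Median scaling over tested probe sets alone raised them by 0.34, with 23 higher and 12 lower, and quantile normalization gave 16 and 13. Of the 19 members not called, median scaling called 18 higher and 0 lower.

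**Figure D1:**
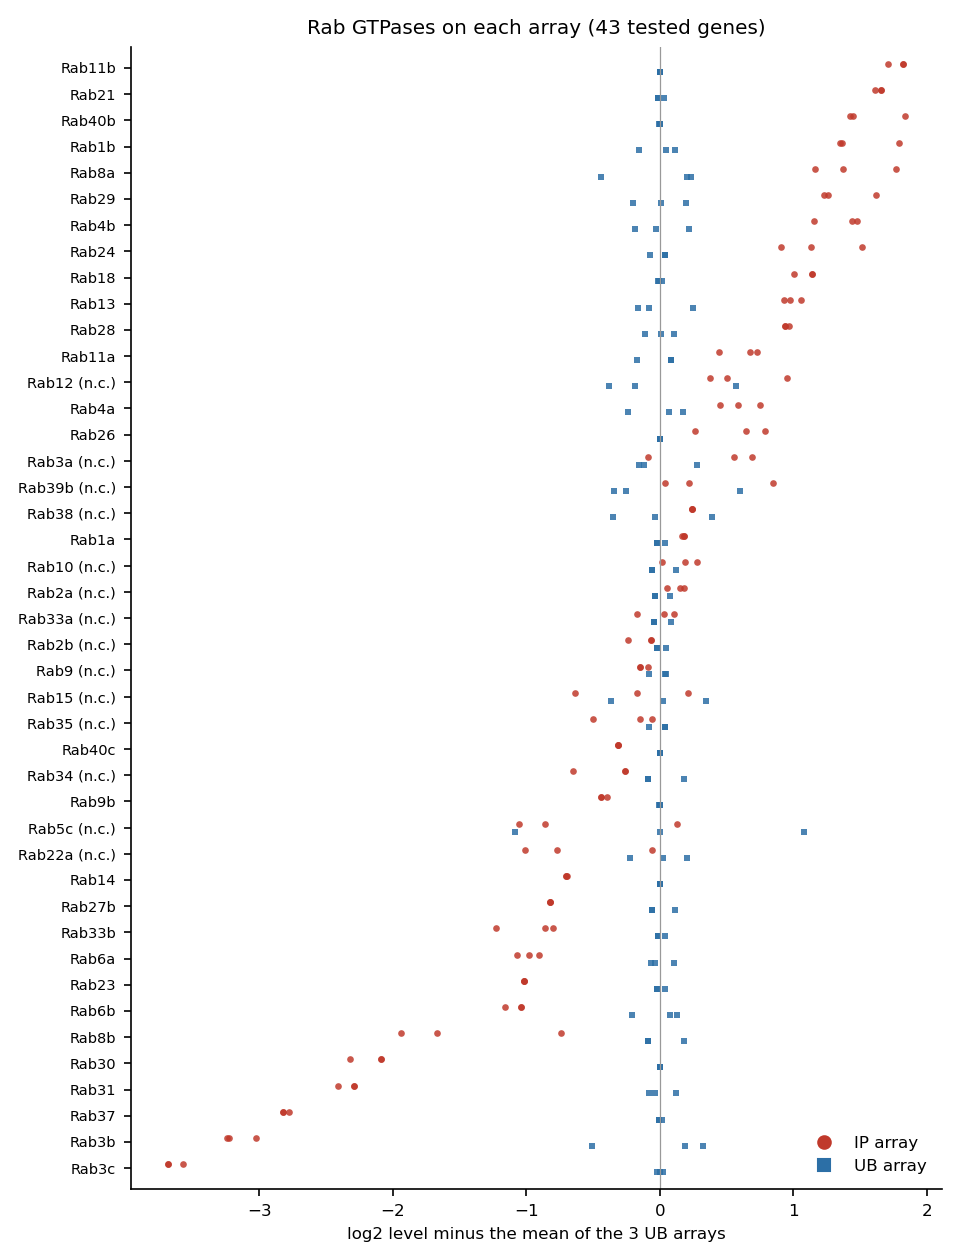
Level of each of the 43 tested Rab GTPases on each array, as the log2 level minus the mean of that gene's 3 UB arrays (x axis), with genes ordered by their fold change. Circles are IP arrays and squares UB arrays, and n.c. marks genes that were not called. Rab11b stands at the top and Rab3c at the bottom.

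The largest changes among the GTPases were those of Arf5 and Arl2 upward and of Rab3c and Rab3b downward, and the Rab8 paralogs moved in opposite directions. The stretches around the transcription starts of these 6 genes are printed for that reason and run from 250 bases before to 50 after the start, from RefSeq on GRCm38.p6. Capitals mark matches, on either strand, to 4 motifs, which are the GC box (GGGCGG), the CCAAT box (CCAAT), an E-box (CACGTG) and the TATA box (TATAAA). The first 3 sequences belong to genes higher in IP and the others to genes lower in IP.

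Arf5, chr6:28423354-28423653, plus strand: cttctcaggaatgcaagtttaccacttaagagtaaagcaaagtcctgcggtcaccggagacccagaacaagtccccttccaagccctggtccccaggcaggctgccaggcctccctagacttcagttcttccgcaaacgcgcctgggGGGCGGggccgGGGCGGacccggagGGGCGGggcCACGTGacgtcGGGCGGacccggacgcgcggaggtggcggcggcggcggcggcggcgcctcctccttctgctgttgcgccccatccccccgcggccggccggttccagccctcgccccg

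Arl2, chr19:6141088-6141387, minus strand: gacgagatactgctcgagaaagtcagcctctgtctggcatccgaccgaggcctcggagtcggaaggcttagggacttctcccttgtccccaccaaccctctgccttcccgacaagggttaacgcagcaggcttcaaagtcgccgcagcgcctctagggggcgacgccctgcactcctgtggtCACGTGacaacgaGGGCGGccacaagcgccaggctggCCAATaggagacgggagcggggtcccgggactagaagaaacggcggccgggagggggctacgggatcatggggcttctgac

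Rab8a, chr8:72160950-72161249, plus strand: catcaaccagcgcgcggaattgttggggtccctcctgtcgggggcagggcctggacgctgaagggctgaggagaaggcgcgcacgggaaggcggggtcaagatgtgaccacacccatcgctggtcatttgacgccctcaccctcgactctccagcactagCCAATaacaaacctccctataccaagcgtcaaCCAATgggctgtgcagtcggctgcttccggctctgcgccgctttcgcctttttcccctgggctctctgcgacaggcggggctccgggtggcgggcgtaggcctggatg

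Rab3c, chr13:110280157-110280456, minus strand: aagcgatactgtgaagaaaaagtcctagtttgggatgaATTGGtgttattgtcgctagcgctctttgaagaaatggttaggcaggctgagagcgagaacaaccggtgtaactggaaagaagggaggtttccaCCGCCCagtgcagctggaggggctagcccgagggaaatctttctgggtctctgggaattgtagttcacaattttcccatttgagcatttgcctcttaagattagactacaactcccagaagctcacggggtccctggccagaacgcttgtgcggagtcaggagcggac

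Rab3b, chr4:108878820-108879119, plus strand: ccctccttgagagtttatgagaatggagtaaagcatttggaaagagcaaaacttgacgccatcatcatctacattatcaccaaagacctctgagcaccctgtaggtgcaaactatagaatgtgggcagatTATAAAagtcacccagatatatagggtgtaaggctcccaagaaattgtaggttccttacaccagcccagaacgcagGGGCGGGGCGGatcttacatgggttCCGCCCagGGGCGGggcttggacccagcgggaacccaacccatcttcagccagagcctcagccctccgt

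Rab8b, chr9:66919656-66919955, minus strand: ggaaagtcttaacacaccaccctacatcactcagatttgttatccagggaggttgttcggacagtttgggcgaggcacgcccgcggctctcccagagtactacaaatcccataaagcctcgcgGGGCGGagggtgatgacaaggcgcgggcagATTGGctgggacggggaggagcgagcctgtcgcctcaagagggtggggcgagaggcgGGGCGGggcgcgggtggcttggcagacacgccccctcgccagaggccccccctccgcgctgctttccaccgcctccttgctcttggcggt

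CACGTG lies in the Arf5 and Arl2 windows and in none of the other 4 printed here. A TATAAA was found in the Rab3b window alone, beside 4 GC boxes of which a pair overlaps. Arf5 and Arl2 held 32 and 24 CpG dinucleotides, against 8 in Rab3b and 11 in Rab3c, while the Rab8a and Rab8b windows had 23 and 24. For 65 of the 80 genes RefSeq windows were matched, 87 in all. Across windows of GTPases called higher, 5 of 19 held CACGTG, against 1 of 15 for those called lower and 7.15% of the 32851 windows of all genes. GGGCGG was in 14 of 19 and in 14 of 15, against 35.7% of all windows. CCAAT was in 13 of 19 and 7 of 15, against 37.4%, and TATAAA in 0 of 19 and 2 of 15, against 13.6%. In the 20 windows of GTPases not called, CACGTG was in 0, GGGCGG in 13, CCAAT in 5 and TATAAA in 1. In the 14 windows of GTPases not tested the counts were 2, 7, 4 and 1. Windows of members held a median of 24 CpG dinucleotides, against 7 for all genes, and the shares were not adjusted for it. All of these are letter matches in short windows and say nothing of which factors bind.

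The Rab GTPases of regulated secretion held the largest decreases. Of 6 tested, 1 was called higher and 4 lower (16.7% and 66.7%), against 30.9% and 43.5% of all tested probe sets. Their median log2 fold change was -1.82. Rab3c (67295_at), one of the paralogs of the synaptic vesicle protein Rab3a, had levels of 6.93, 6.81 and 6.81 in IP, against 10.50, 10.48 and 10.53 in UB. It was 12.5-fold lower in IP (log2 fold change -3.65 ± 0.04, adjusted p = 1.25e-07). Rab3b (69908_at) stood at 5.56, 5.37 and 5.35 in IP, under the signal level, against 8.08, 8.91 and 8.78 in UB. It was at least 7.71-fold lower (adjusted p = 0.000236). Rab3a (19339_at), the main Rab3 of synaptic vesicles, was not called lower: its levels were 12.97, 13.61 and 13.74 in IP, against 12.90, 12.93 and 13.33 in UB. Its fractions overlapped and it was not called (0.38 ± 0.26, adjusted p = 0.231), although it was called higher with IP replicate 1 left out (adjusted p = 0.0367) and with median scaling (0.000588). Rab37, a GTPase of secretory granules, had 6.27, 6.27 and 6.32 in IP, against 9.08, 9.08 and 9.11 in UB (-2.81 ± 0.02, adjusted p = 2.33e-08). Rab27b, which docks secretory vesicles, fell less, with 8.36 on all 3 IP arrays, against 9.13, 9.30 and 9.13 in UB (-0.83 ± 0.06, adjusted p = 0.000124, but 0.73 with median scaling). Rab26, found on vesicles, was higher in IP at 8.07, 8.45 and 8.59, against 7.80 on all 3 UB arrays (0.57 ± 0.14, adjusted p = 0.0197). That call was lost without IP replicate 2 (adjusted p = 0.0661), without UB replicate 1, 2 or 3 (0.0608, 0.0608 and 0.0617) and without preparation 2 or 3 (0.162 and 0.124). Rab3d and Rab27a had no signal on any array.

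At the endoplasmic reticulum and Golgi, 3 of 11 tested Rab GTPases were called higher and 4 lower. These 27.3% and 36.4% were near the 30.9% and 43.5% of all tested probe sets. Rab1b, which carries cargo from the endoplasmic reticulum to the Golgi, had 10.45, 10.47 and 10.89 in IP, against 8.94, 9.21 and 9.14 in UB, and was 2.83-fold higher (adjusted p = 0.00067). Its paralog Rab1a changed far less, with 13.60, 13.60 and 13.58 in IP, against 13.46, 13.40 and 13.40 in UB (0.17 ± 0.02, adjusted p = 0.00197, -0.12 with quantile normalization). Rab18, a GTPase of the endoplasmic reticulum and lipid droplets, was 2.14-fold higher at 9.72, 9.72 and 9.58 in IP, against 8.59, 8.56 and 8.57 in UB (adjusted p = 2.05e-05). The 4 called lower were Rab30, Rab6a, Rab6b and Rab33b, all known from the Golgi. Rab30 had 6.11, 6.11 and 5.88 in IP, against 8.20 on all 3 UB arrays, 4.49-fold lower (adjusted p = 8.01e-06). Both Rab6 genes, which drive traffic back toward and within the Golgi, fell to like extents. Rab6b stood at 10.75, 10.87 and 10.87 in IP, against 11.71, 11.99 and 12.04 in UB (-1.08 ± 0.11, adjusted p = 0.000555), and Rab6a at 12.98, 12.90 and 12.82, against 13.84, 13.82 and 13.99 (-0.99 ± 0.07, adjusted p = 0.000135). Rab33b, which also binds the autophagy protein Atg16l1, fell by 0.96 ± 0.13 (adjusted p = 0.00172). Under median scaling, Rab6b, Rab6a and Rab33b stood higher in IP (0.48, 0.57 and 0.59), and Rab30 stayed lower (-0.61). Rab2a, Rab2b, Rab33a and Rab34 were not called, with log2 fold changes of 0.13, -0.13, -0.01 and -0.39. Without UB replicate 3 Rab2a was called higher (adjusted p = 0.0433), and without preparation 1 Rab2b lower (0.0213). With the preparation number as a replicate block, Rab34 was called lower (adjusted p = 0.0491), while median scaling called Rab34 and Rab2b higher (0.000467 and 1.2e-05).

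Early endosomal Rab GTPases went up and down, with 3 of 6 called higher and 1 lower (50% and 16.7%). The shares of all tested probe sets were 30.9% and 43.5%. Rab5c was the only Rab5 gene measured. Rab21, which moves integrins through early endosomes, had 11.63, 11.67 and 11.67 in IP, against 10.04, 10.00 and 10.00 in UB, and was 3.12-fold higher (adjusted p = 4.11e-07). Rab4b, of the fast recycling route, had 11.99, 12.28 and 12.31 in IP, against 10.65, 10.80 and 11.06 in UB, 2.56-fold higher (adjusted p = 0.000822). Rab4a rose less, by 0.59 ± 0.14 (adjusted p = 0.0145), a call lost without preparation 2 or 3 (adjusted p = 0.0729 and 0.108). On the other side stood Rab31, which works between the trans-Golgi network and endosomes: 6.08, 5.96 and 6.08 in IP, against 8.50, 8.34 and 8.29 in UB. It was 5.04-fold lower (adjusted p = 4.89e-06). Rab5c, a Rab5 of early endosome fusion, spread over 6.91, 8.09 and 7.10 in IP, against 6.88, 7.97 and 9.05 in UB, with the largest SE of the 65 tested members, and was not called (-0.60 ± 0.67, adjusted p = 0.454). Rab22a was not called either (-0.61 ± 0.29), though it was called lower without IP replicate 1 (adjusted p = 0.0131) and higher with median scaling (0.0182).

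Rab GTPases of recycling endosomes and of transport to the plasma membrane included the largest Rab increase. Of 10 tested, 4 were called higher and 2 lower (40% and 20%, against 30.9% and 43.5% of all tested probe sets), with a median of 0.39. Rab11b, of recycling endosomes, had 8.01, 8.01 and 7.89 in IP, against 6.18 on all 3 UB arrays, and was 3.44-fold higher (adjusted p = 1.26e-06). Rab11a, its better known paralog, had 12.64, 12.93 and 12.87 in IP, against 12.03, 12.28 and 12.28 in UB (0.61 ± 0.11, adjusted p = 0.00643), a call lost without preparation 2 or 3 (adjusted p = 0.0639 and 0.0705). Rab8a, which takes vesicles from the Golgi to the plasma membrane and into primary cilia, had 9.79, 10.00 and 10.40 in IP, against 8.19, 8.83 and 8.86 in UB. It was 2.70-fold higher (adjusted p = 0.00606), or adjusted p = 0.0628 without preparation 2. Rab8b went the other way, with 10.12, 8.91 and 9.18 in IP, against 11.04, 10.77 and 10.77 in UB, 2.74-fold lower (adjusted p = 0.0156). The Rab8b call was lost without IP replicate 3 (adjusted p = 0.0551), UB replicate 1 (0.0562), preparation 2 (0.106) or preparation 3 (0.136), and its change was 0.11 with median scaling. Rab13, known from tight junctions, was 1.98-fold higher (adjusted p = 0.00142), and Rab14, between the trans-Golgi network and endosomes, fell by 0.70 ± 0.02 (adjusted p = 2.41e-06, 0.86 with median scaling). Rab10, Rab12, Rab15 and Rab35 were not called. Rab12 was called higher (adjusted p = 0.0189) and Rab15 lower (adjusted p = 0.0273) with the replicate block, while median scaling called Rab15 higher (0.00508). Without UB replicate 1 or preparation 1 Rab12 was also called higher (0.0288 and 0.0172).

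Among the Rab GTPases of late endosomes, lysosomes and related organelles, 2 of 6 were called higher and 1 lower (33.3% and 16.7%). The shares of all tested probe sets were 30.9% and 43.5%. Rab7b, the only Rab7 gene measured, had no signal. Rab29, tied to the kinase LRRK2 in human cells, had 7.42, 7.03 and 7.06 in IP, against 6.00, 5.81 and 5.60 in UB, 2.58-fold higher (adjusted p = 0.00103). Rab24, a GTPase linked to autophagy, had 11.50, 11.73 and 12.11 in IP, against 10.52, 10.63 and 10.63 in UB, 2.27-fold higher (adjusted p = 0.00239). Rab9b fell by 0.42 ± 0.02 (adjusted p = 5.68e-05, 1.13 with median scaling), while Rab9, which returns receptors from late endosomes to the Golgi, was at 13.56, 13.50 and 13.50 in IP, against 13.57, 13.69 and 13.69 in UB and fell short of a call (adjusted p = 0.0520), which it reached as lower without UB replicate 1 or preparation 1 (0.00918 and 0.00126) and with quantile normalization (0.00194). Rab9 was called higher with median scaling (1.8e-06) and with median scaling over tested probe sets (0.0413). Rab39b, mutated in a human X-linked intellectual disability, was not called (0.37 ± 0.36) but was higher with the replicate block (adjusted p = 0.0172) and without preparation 1 (0.0376). Rab38 was not called, but was higher without UB replicate 1 (0.0299), with median scaling (0.000275), with median scaling over tested probe sets (0.03) and with quantile normalization (0.00737). Of the pair with roles at cilia, Rab28 was 1.93-fold higher in IP (adjusted p = 0.000106). Rab23, a brake on Hedgehog signalling, was at least 1.81-fold lower, with 5.49 on all 3 IP arrays, under the signal level, against 6.54, 6.48 and 6.48 in UB (adjusted p = 9.14e-07, 0.00 with quantile normalization at adjusted p = 0.98, and 0.54 with median scaling). The Rab40 genes, whose proteins join ubiquitin ligases, split: Rab40b had 8.05, 7.65 and 7.64 in IP, against 6.20, 6.21 and 6.21 in UB, 2.97-fold higher (adjusted p = 0.00025). Rab40c was 1.24-fold lower at 5.97 on all 3 IP arrays, against 6.29 on all 3 UB arrays (adjusted p = 1.26e-06), a difference that turned upward with median scaling (1.24), median scaling over tested probe sets (0.03) and quantile normalization (0.70).

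**Figure D2:**
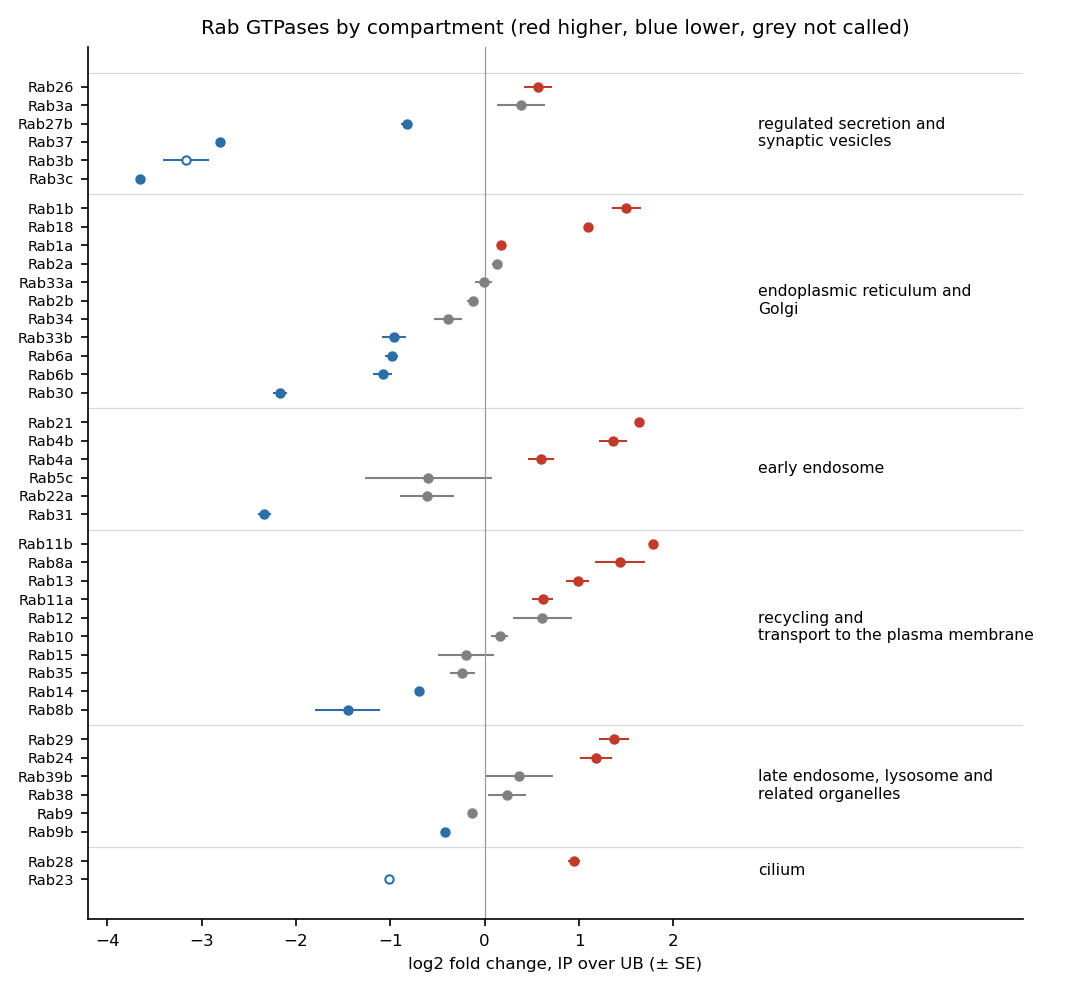
Log2 fold change of IP over UB (x axis, bars are SE of the limma fit over 3 arrays a fraction) for the tested Rab GTPases, grouped by the compartment they are best known for. Red marks genes called higher in IP, blue those called lower and grey those not called, and open symbols are fitted values of Rab3b and Rab23, under the signal level in IP, whose folds are bounds. The secretory group holds Rab3c and Rab37 at -3.65 and -2.81. Rab40b and Rab40c, which were placed in no compartment, are not shown.

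The 12 Rab GTPases without signal on 3 arrays were Rab3d, Rab7b, Rab17, Rab19, Rab20, Rab25, Rab27a, Rab32, Rab36, Rab39, Rab43 and Rab44. Of the partner genes Rab11fip1 and the non-coding Rab11fip4os1 were not tested, and of the Arl GTPases Arl14 was not. In all, 9 of these 15 were at the lowest value of the table on all arrays of both fractions, within 0.05 on the log2 scale. The 5 members with signal in UB alone, which could pass the filter only by being lower in IP, were Rab3b, Rab23, Arl15, Rab11fip3 and Rab11fip4. No member had signal in IP alone. In 15 of the 65 tested members all arrays of at least 1 fraction carried the same value, so no spread between arrays was measured there.

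Paralogs of a family can be set against each other within an array, a ratio that no shift of whole arrays moves. Quantile normalization is not such a shift and can move it. Under it Arf2 and Arf1 changed by 1.78 and 0.01, in place of 0.59 and 0.31. Rab2a and Rab2b then changed by -0.20 and -0.0017, in place of 0.13 and -0.13. The ratios below use the levels scaled on the controls and were not computed under other scalings. This comparison was added after the values were seen, over all 16 pairs of tested members of the same Rab number or Arf class, and the paralog with the higher fold change is written first. The ratio of Rab3a to Rab3c was higher in IP than in UB by 4.03 ± 0.36 on the log2 scale (SD over 3 preparations). The 2 pairs with Rab3b are not given, since Rab3b was under the signal level in IP. For Rab8a to Rab8b the difference was 2.52, 3.02 and 3.12 in preparations 1, 2 and 3, a 7.38-fold shift in the ratio. Rab40b to Rab40c shifted by 1.88 ± 0.24, Arf5 to Arf4 by 1.45 ± 0.48, Arf2 to Arf3 by 1.34 ± 0.07, Rab1b to Rab1a by 1.33 ± 0.26 and Rab11b to Rab11a by 1.17 ± 0.05. All of these exceeded the spread between preparations. The paralogs Rab6a and Rab6b differed by 0.10 ± 0.10, within that spread, as did Arf2 and Arf1 at 0.28 ± 0.32. In 12 of the other 14 pairs the ratios of IP and UB did not overlap, where single probe sets did not overlap in 80.0% of cases and other gene pairs were not computed. Each of these 12 had an exact two-sided permutation p of 0.10, the smallest that 3 against 3 arrays can give (0.114 after Benjamini-Hochberg adjustment over the 16 pairs). No pair could therefore pass 0.05. Binding of a paralog's RNA to its sister's probes was not tested.

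**Figure D3:**
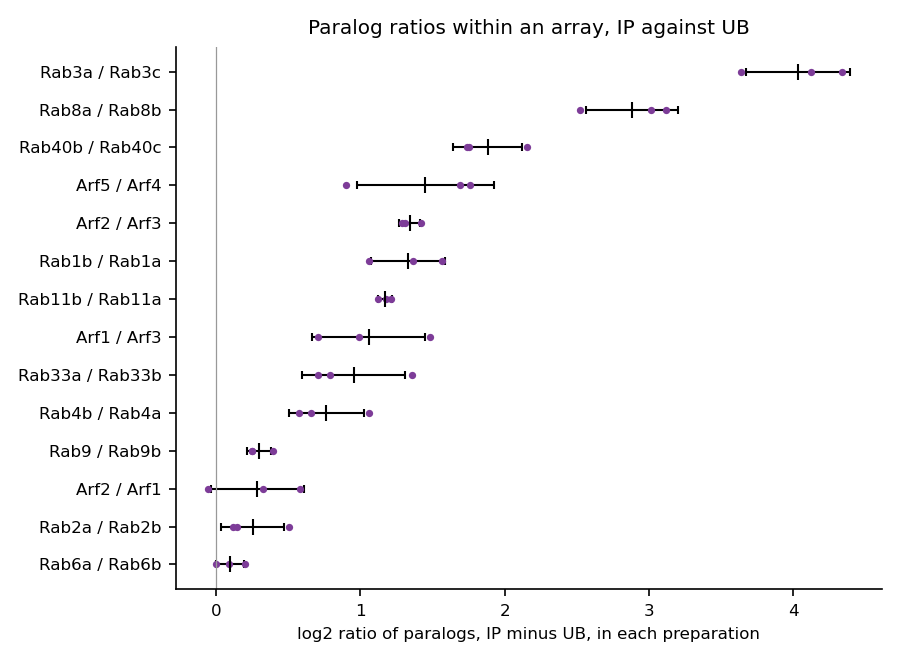
Change of the ratio of a pair of paralogs, IP minus UB on the log2 scale (x axis), for the 14 pairs of tested members that had signal in both fractions. Points are preparations 1 to 3 and bars the mean ± SD. The gene with the higher fold change is named first, so means lie above 0 by construction. Rab3a against Rab3c and Rab8a against Rab8b lie farthest out.

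The Arf GTPases leaned upward in IP, with a median of 0.38. Arf5 (11844_at), a class II Arf of the Golgi, had the largest increase of all members, with 7.89, 7.86 and 7.89 in IP, against 5.66, 5.82 and 6.44 in UB. It was 3.75-fold higher (1.91 ± 0.22, adjusted p = 0.00112). Arf4, the other class II Arf, had 10.57, 10.43 and 10.69 in IP, against 10.02, 10.15 and 10.15 in UB (0.46 ± 0.08, adjusted p = 0.00611, but 0.0686 without preparation 1). Its call was also lost with the control offset taken per array (0.186). In class I, which recruits the COPI and clathrin adaptor coats, Arf2 rose and Arf3 fell. Arf2 had 6.20 on all 3 IP arrays, against 5.65, 5.53 and 5.65 in UB (0.59 ± 0.04, adjusted p = 9.85e-05). Arf3 had 10.74, 10.86 and 10.87 in IP, against 11.51, 11.49 and 11.75 in UB (-0.75 ± 0.09, adjusted p = 0.00113, but 0.81 with median scaling). Arf1, with 13.24, 12.91 and 13.55 in IP, against 13.01, 12.82 and 12.94 in UB, overlapped between fractions and missed the threshold (adjusted p = 0.183). Arf1 was called higher without IP replicate 2 (0.0370), with median scaling (0.000135) and with median scaling over tested probe sets (0.0108). Arf6, the Arf of the plasma membrane, had 8.26, 7.98 and 7.90 in IP, against 8.16, 8.05 and 8.05 in UB, and was not called (-0.04 ± 0.11).

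Arl2 (56327_at), which regulates tubulin folding, had 11.54, 11.94 and 12.13 in IP, against 9.97, 10.15 and 9.98 in UB, and was 3.57-fold higher (1.84 ± 0.17, adjusted p = 0.000463). Arl3, which releases lipid-tailed cargo in cilia, was higher by a small margin, with 14.80, 14.74 and 14.72 in IP, against 14.38, 14.41 and 14.37 in UB (0.37 ± 0.03, adjusted p = 0.000246). Its call was lost with quantile normalization (adjusted p = 0.213) and with the control offset taken per array (0.271). Of the carriers that Arl3 unloads, Unc119 was higher by 1.45 ± 0.05 (adjusted p = 1.35e-05) and Pde6d, named after its value was seen, by 1.16 ± 0.07 (adjusted p = 9.11e-05), while Unc119b was not called (-0.13 ± 0.08, adjusted p = 0.184). Unc119b was called lower without UB replicate 2 or preparation 2 (0.00964 and 0.026) and higher with median scaling (2.64e-05). Arl2bp, which binds Arl2 and Arl3, had 11.15 on all 3 IP arrays, against 10.57, 10.75 and 10.90 in UB (0.41 ± 0.09, adjusted p = 0.0116, but 0.115 without preparation 2). Arl15 was at least 1.11-fold lower, with 3.66 on all 3 IP arrays, against 5.75, 5.89 and 5.75 in UB, close to the signal level. Arl16 was not called (-0.11 ± 0.21).

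Partner genes tied to Rab8, Rab3 and Rab11 differed among themselves. Rab3ip, an exchange factor that loads Rab8, had 10.19, 10.01 and 10.23 in IP, against 9.77, 9.32 and 9.36 in UB (0.66 ± 0.15, adjusted p = 0.0123, but 0.0744 and 0.132 without preparation 2 or 3). Rab5if, a small membrane protein first named as a Rab5 partner, was 2.18-fold higher, with 13.61, 13.68 and 13.68 in IP, against 12.29, 12.63 and 12.68 in UB (adjusted p = 0.000662). The non-coding RNA Rab10os had 8.87, 9.01 and 8.98 in IP, against 7.24 on all 3 UB arrays, 3.27-fold higher (adjusted p = 2.20e-06), while Rab10 itself was not called (0.16 ± 0.09). Rab3gap2, the non-catalytic subunit of the GAP for Rab3, had 7.30, 6.94 and 6.94 in IP, against 8.20, 7.76 and 7.76 in UB (-0.85 ± 0.17, adjusted p = 0.00925). That call was lost without preparation 2 or 3 (0.0789 and 0.0793) and with quantile normalization (0.198), and its change was 0.71 with median scaling. The catalytic subunit gene Rab3gap1 was not called (-0.25 ± 0.11), and neither was Rab3il1 (-0.28 ± 0.18), which was called lower without UB replicate 1 (adjusted p = 0.0493) but higher with quantile normalization (0.00434) and median scaling (0.000579). Of the Rab11 effectors, Rab11fip2 was 1.25-fold higher, with 8.12 on all 3 IP arrays, against 7.80 on all 3 UB arrays (adjusted p = 2.05e-05). No spread was measured in either fraction, and the call was lost with the control offset taken per array (0.37). Rab11fip4 was at least 1.42-fold lower, with 3.34 on all 3 IP arrays, against 6.15 on all 3 UB arrays, again without a measured spread. Rab11fip3, under the signal level in IP, was at least 1.13-fold lower, but it passed no longer once values below 50 were set to 50 (adjusted p = 0.087) or without preparation 2 (0.0569). Rab11fip5 fell by 0.32 ± 0.08. Both stood higher with median scaling (1.13 and 1.24), and the Rab11fip5 call was lost without IP replicate 1 or 2, UB replicate 3 or any preparation (0.0513 to 0.0853). Arl14ep fell by 1.35 ± 0.03, with 6.94, 7.02 and 6.94 in IP, against 8.31 on all 3 UB arrays (adjusted p = 1.09e-06, but 0.21 with median scaling).

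**Figure D4:**
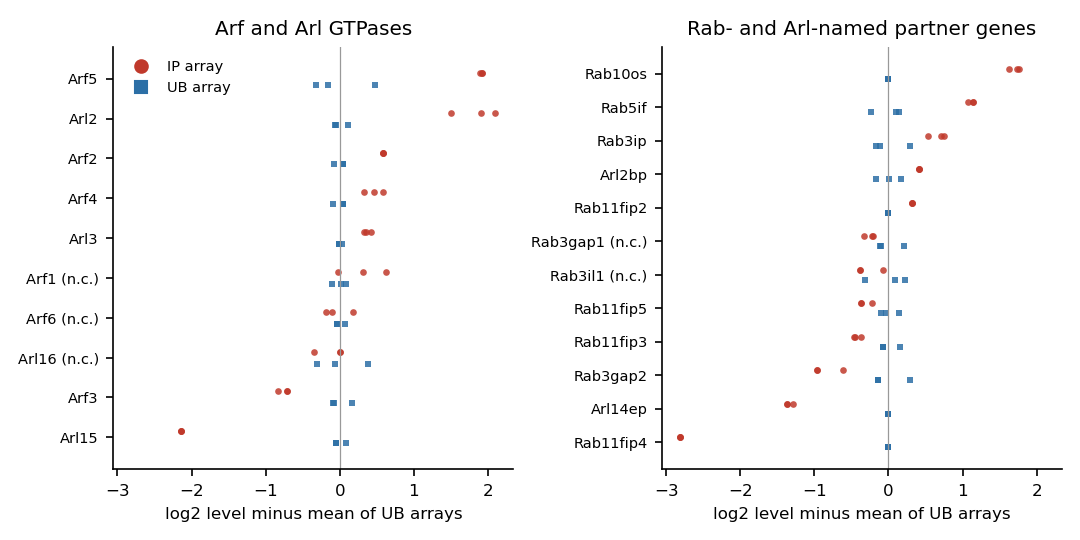
Level of each tested Arf and Arl GTPase (left) and partner gene (right) on each array, as the log2 level minus the mean of that gene's 3 UB arrays (x axis). Circles are IP arrays and squares UB arrays, and n.c. marks genes not called. Arf5, Arl2 and Rab10os lie to the right, and Arl15 and Rab11fip4 to the left.

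Genes that load, turn off or read these GTPases were counted in 5 lists, beside 43.5% lower and 30.9% higher for all tested probe sets. Among Rab effectors 3 of 23 tested genes were called higher and 12 lower (median -0.70), among Rab GAPs 6 of 24 higher and 13 lower (-0.43), and among Rab exchange factors 5 of 17 higher and 6 lower (-0.14). Of the Arf regulators, 14 of 16 Arf GAPs were called lower and 1 higher (median -1.41), and 9 of 14 Arf exchange factors lower and 2 higher (-1.48). Genes under the signal level on all IP arrays could pass the filter only by being lower. They were 7 Rab effectors, 2 Rab GAPs, 2 Rab exchange factors, 5 Arf GAPs and 3 Arf exchange factors. In UB 1 Rab effector and 2 Rab GAPs were so placed. With these folds as bounds the medians were -0.40 for Rab effectors, -1.13 for Arf GAPs and -1.27 for Arf exchange factors. The split of the Rab GAPs and Rab exchange factors turned with the scaling. Rab GAPs were 10 higher and 8 lower, and Rab exchange factors 7 and 5, with quantile normalization, and 19 and 2, and 15 and 1, with median scaling. Quantile normalization left the other lists mostly lower: Rab effectors 5 higher and 9 lower, Arf exchange factors 4 and 8 and Arf GAPs 2 and 12. Of all 8960 tested probe sets 3579 were then higher and 3118 lower. Median scaling gave 15 and 5, 7 and 7, and 8 and 4 for those lists. Median scaling put the medians of these 5 lists above 0, at 0.15 for the Arf GAPs and 0.07 for the Arf exchange factors.

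The effectors with the largest called changes were Rph3a downward and Sytl1 upward. Rph3a (19894_at), rabphilin, which binds Rab3 and Rab27 on vesicles, had 3.02, 3.02 and 3.03 in IP, against 9.90, 9.91 and 10.05 in UB. It was at least 19.8-fold lower (adjusted p = 1.56e-08). Rims2, a Rab3 effector of the active zone named after its values were seen, had 2.52, 2.47 and 3.65 in IP, against 9.04, 9.18 and 9.13 in UB, at least 11.1-fold lower (adjusted p = 6.84e-05). Sytl1, a Rab27 effector, had 6.90, 7.32 and 8.33 in IP, against 3.43, 3.43 and 3.42 in UB, at least 3.66-fold higher (adjusted p = 0.000531). Sytl2, of the same effector family and also named after its values were seen, was 2.55-fold higher (adjusted p = 0.000904). The Rab27 effectors Exph5 (at least 5.12-fold, adjusted p = 5.37e-09) and Myrip (-0.73, adjusted p = 0.0029), likewise not named by the rule, were lower. The Myrip call was lost without preparation 3 (adjusted p = 0.0539).

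Of the genes for lipid tails and membrane extraction, Rabggtb, the catalytic subunit of the transferase that attaches the tails, had 13.03, 12.38 and 12.47 in IP, against 11.73, 11.45 and 11.80 in UB. It was 1.96-fold higher (adjusted p = 0.0116, but 0.0615 and 0.0741 without preparation 2 or 3). Chml, an escort protein that presents Rabs to this transferase, was at least 1.27-fold lower. Among exchange factors Dennd2a was 4.77-fold higher (adjusted p = 8.65e-06) and the Rab5 exchange factor Rin2 at least 1.72-fold lower (adjusted p = 0.000321, but 0.103 with levels under 50 raised to 50). Among GAPs Tbc1d10a was at least 4.45-fold higher (adjusted p = 1.24e-05) and Tbc1d30 at least 1.78-fold lower. On the Arf side, the exchange factor Cyth2 had 11.18, 11.09 and 11.43 in IP, against 9.79, 9.84 and 9.75 in UB, 2.71-fold higher (adjusted p = 0.00013), and Psd2, an Arf6 exchange factor, was at least 6.31-fold lower. The Arf GAP Agap3 was 2.12-fold higher and Asap2 at least 3.19-fold lower. Kif1b, a kinesin counted with the Arl effectors, was at least 2.42-fold lower. In that list 4 of 19 genes were called higher and 12 lower (21.1% and 63.2%), against 30.9% and 43.5% of all tested probe sets. Of these 19, 3 were under the signal level on all IP arrays.

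Related GTPases outside the symbol rule gave a point of comparison. Of 9 tested Rab-like and Arf-related GTPases, 6 were called higher in IP and 1 lower (66.7% and 11.1%). The shares of all tested probe sets were 30.9% and 43.5%. Ift22 stood at 1.06 ± 0.31 (adjusted p = 0.0312) and Rabl6 at -0.38 ± 0.07 (adjusted p = 0.00511). The Ift22 call was lost without IP replicate 2 or 3, UB replicate 1 or 3, or preparation 2 or 3 (adjusted p 0.0812 to 0.190). The Rabl6 call was lost without preparation 1 or 2 (0.0668 and 0.0648), and its change was 1.18 with median scaling. Among the Ras, Rap, Ral and Rheb GTPases, 4 of 18 were called higher and 12 lower (22.2% and 66.7%, median -0.97). Of these 18, 5 were under the signal level on all IP arrays and could pass the filter only by being lower. The difference between this family and the Rab GTPases was not tested.

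**Figure D5:**
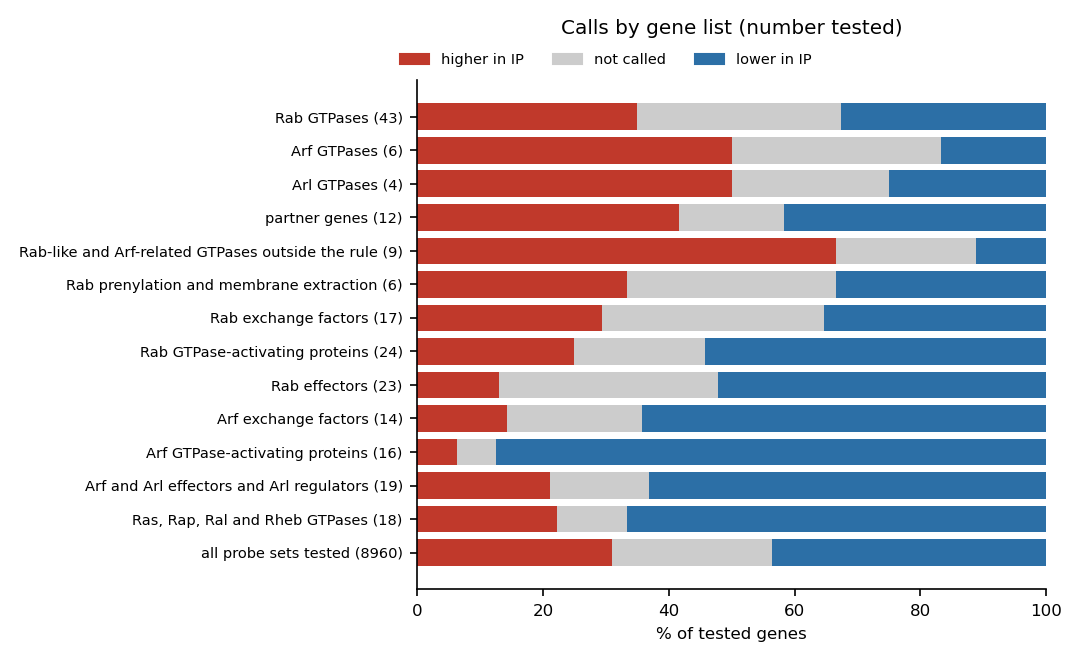
Share of the tested genes of each list that were called higher in IP (red), not called (grey) or called lower (blue), as % of tested genes (x axis), with the number tested in brackets. The bottom bar gives all 8960 tested probe sets, 30.9% higher and 43.5% lower.

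Genomic spans were taken from RefSeq. Rab GTPases called higher had a median span of 20.2 kb (15 genes), against 67.8 kb for those called lower (14 genes) and 22.9 kb for those not called. Across all tested genes the median was 15.3 kb for those called higher and 38.4 kb for those called lower, the same order.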

How the data were processed

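The authors deposited log2 levels, 1 per probe set and array, computed with GCRMA per the submitters' processing notes and normalized within groups of biological replicates per the series' design text. RNA was amplified in 2 cycles from 20 ng per the labels' protocols, which can distort levels. The lowest value differed between IP (2.10) and UB (2.05), as it does after separate normalization. Any spread between replicates that normalization within a fraction removed is missing from the SE and adjusted p. In 2780 of 8960 tested probe sets all arrays of at least 1 fraction carried the same value. Controls made up 64 of 17370 probe sets and another 842 lacked a gene symbol. All 16464 symbols matched RefSeq by gene identifier.

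From these values the mean IP minus UB difference of 18 biotinylated control probe sets (0.016, SE 0.031 over control probe sets) was taken off the IP arrays. The filter left 8960 probe sets, which were fitted together in limma 3.58.1 (R 4.3.3) with a mean-variance trend, two-sided, with Benjamini-Hochberg adjustment. Errors of fold changes are SE of that fit. For a gene below 50 on every array of 1 fraction, the level 50 stood in for that fraction, giving a lower bound ("at least"). The fit was tested on simulated data. Other tables and figures used Python 3.11.15 with pandas 2.3.3, scipy 1.17.1 and matplotlib 3.10.9.

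The unbound samples are labelled by the replicate they were left from, so numbers pair the arrays. Same-numbered deviations from the group means correlated at 0.66, 0.54 and 0.31 for replicates 1, 2 and 3 over 6180 untied probe sets, although IP replicate 3 correlated more with UB replicate 2 (0.35). The labels call the replicates biological, and the design text calls them independent; the animals per replicate are not stated.

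The members and all gene lists were chosen with earlier results of these data known. Named were the 8 largest increases and decreases among called Rab GTPases and all measured Rab3, Rab5, Rab7, Rab11, Rab27 and Arf genes. Added to these were up to 4 Arl and 3 partner genes a direction, and the largest change a direction in each regulator list. Only Rab5c was measured of the Rab5 genes and only Rab7b of the Rab7 genes. Of the genes listed for the endoplasmic reticulum and Golgi, 14 of 17 were measured. For the early endosome these were 8 of 10, and for late endosomes, lysosomes and related organelles 9 of 14. Other members appear so that each is accounted for. Promoter windows came from RefSeq (GRCm38.p6). Results on 1 further gene list are not reported here. Other scalings, filters, variance models, the replicate block and left-out arrays were tried.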

Additional observations from a re-analysis of the deposited data

How the results depend on the processing

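Leaving out arrays or whole preparations gave 11 to 17 Rab GTPases called higher and 13 to 16 lower, 2 to 4 and 1 to 1 Arf, 2 to 2 and 1 to 1 Arl, 3 to 5 and 2 to 6 partner genes, and 1993 to 2958 and 3199 to 3964 of all probe sets. With the replicate block the counts were 17 and 16 for Rab, 3 and 1 for Arf, 2 and 1 for Arl GTPases, 5 and 5 for partner genes and 2911 and 3963 for all probe sets, and no call of a gene named by the rule changed.

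The IP median that median scaling uses lay under the signal level. Median scaling gave 36 Rab GTPases higher and 5 lower, 6 Arf GTPases higher and 0 lower, 11 partner genes higher and 1 lower, and 6680 of all probe sets higher and 1587 lower. Among the 65 tested members 26 of 33 negative changes then turned positive. For genes named by the rule these were 0.11 for Rab8b, 0.48 for Rab6b, 0.54 for Rab23, 0.96 for Rab5c, 0.73 for Rab27b, 0.81 for Arf3, 1.52 for Arf6, 0.21 for Arl14ep, 0.71 for Rab3gap2 and 1.18 for Rabl6. Median scaling over tested probe sets left 23 Rab GTPases higher, 3 partner genes lower and Arf6 at 0.30. With quantile normalization 1 Arl GTPase was higher and 3 partner genes lower, with Rab23 at 0.0017 and Arf6 at 0.39. With the control offset taken per array 11 Rab GTPases were higher and 12 lower, beside 2061 and 3220 of all probe sets. Under it 1 Arf GTPase, 1 Arl GTPase and 3 partner genes were higher and 3 partner genes lower. Rab calls lost were Rab1a (adjusted p = 0.631), Rab4a (0.0783), Rab9b (0.218), Rab11a (0.0626), Rab26 (0.0949) and Rab40c (0.353). The calls of Arf2 (0.0634), Arf4 (0.186), Arl3 (0.271), Arl2bp (0.234), Rab11fip2 (0.37), Rab11fip3 (0.18), Rab11fip5 (0.363) and Rabl6 (0.282) were lost as well.

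With tied probe sets left out, and so fewer genes tested, 9 Rab and 0 Arl GTPases and 3 partner genes were lower, 2 partner genes higher and 2123 of all probe sets lower. Under the filter for signal on all 6 arrays 0 Arl GTPases, 3 partner genes and 2416 of all probe sets were lower, and with no filter 8557 and 5998 of all probe sets were higher and lower. Left-out arrays or preparations moved Rab5c between -1.14 (without UB replicate 1) and 0.0757 (without replicate 3), and Arf6 between -0.14 (without IP replicate 1) and 0.0352 (without IP replicate 3), with 0.0166 without replicate 3. The lowest partner gene counts, 3 higher and 2 lower, came without replicate 2, and 3 were lower without replicate 3. Of 51 named genes, 31 could be fitted under all 20 alternatives, and 15 of these kept direction and side of the threshold throughout. The other 20 dropped out under the stricter filter or with tied probe sets left out, and 15 of them kept both under the alternatives that were run. For values that changed, the cause was not tested beyond what each alternative alters. Low signal limits the 5 members under 50 in IP to bounds.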
